A study of Arabidopsis thaliana with 15 samples.

Results

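Inflorescence meristems of the floral mutant ap1-1 were compared with those of wild type across all genes. The comparison used 5 of the 15 RNA-sequencing libraries of the series, the 3 labelled ap1-1 and the 2 labelled as unsprayed wild type, and tested 21009 of 28775 counted genes. Tissue was taken from 6-week-old Arabidopsis thaliana of the accession Ler, grown at 21 °C. Per the labels neither group was sprayed, and neither is given a transgene, so the labelled difference is the ap1-1 allele alone. The allele is called ap1-4 in the series' design text but ap1-1 in every sample label, and the labels' name is used.

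The other 10 libraries are of ap1-1 plants in which the AP1 promoter drives a microRNA aimed at STM and BP (n = 2, the microRNA line), of wild type sprayed with 10 µM dexamethasone in 0.02% Silwet (DEX, n = 2), and of plants with 35S::STM-GR sprayed with DEX (n = 3) or with Silwet as mock (n = 3). In STM-GR plants STM, expressed throughout the plant, is fused to the hormone-binding part of a glucocorticoid receptor. Spraying preceded sampling by 5 h. The microRNA line carries ap1-1 too, and its comparison with DEX-sprayed wild type shares no library with that of ap1-1 and unsprayed wild type. In it the allele, the microRNA and the spray cannot be told apart, and the labels do not say whether both ap1-1 stocks are the same. Nothing in the labels says that replicates came from separate plants or days, so p-values measure the spread between these libraries.

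AP1 (APETALA1) encodes a MADS-box transcription factor that gives a young floral meristem its identity and later specifies sepals and petals. It acts with its close relatives CAL and FUL, and it represses genes of the inflorescence programme, among them SOC1, AGL24, SVP and TFL1. Flowers of ap1 mutants have leaf-like outer organs, lack petals and form secondary flowers in the axils of those organs.

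The 5 libraries held 18717248 to 26413106 gene counts. The first principal component of log2 CPM (counts scaled to library size), with 47.3% of the variance, separated the genotypes, with ap1-1 at -27.8, -26.6 and -16.9 and wild type at 39.0 and 32.3. The second, with 20.8%, spread ap1-1 replicate 1 (29.3) from replicate 3 (-31.9). Replicates differed more in these groups than elsewhere, with a chi-square per gene between pairs of 17.4 to 32.2 in ap1-1 and 14.2 in wild type against 3.14 to 7.67 in the other groups. The meristem genes STM, WUS, CLV1 and LFY were present in all 5 libraries, while the stem cell peptide gene CLV3 had a count of 0 in each. The 20 genes of photosynthetic tissue summed to 32886 to 33051 CPM in wild type and to 29019, 33726 and 42938 CPM in ap1-1 replicates 1, 2 and 3. Anther and tapetum genes summed to 1811 to 1923 and 1420 to 1808 CPM, mature pollen genes to 980 to 1539 and 877 to 1235 CPM, in wild type and ap1-1. Genes of anthers and pollen were thus counted beside those of the meristem, so a difference cannot be placed in meristem cells alone.

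AP1 itself (AT1G69120, chromosome 1, 25982294 to 25986349 in TAIR10.1) was at 193 and 213 CPM in wild type and at 90.13, 86.3 and 88.3 CPM in ap1-1. All ap1-1 libraries lay below both wild-type libraries, at a level 2.32-fold lower (log2 fold change -1.21 ± 0.11, SE; edgeR quasi-likelihood adjusted p = 0.00407). Gene counts do not read the base change of the allele, so AP1 is reported only as a level. In bulk tissue, fewer cells that express a gene and less RNA per cell cannot be told apart. The microRNA line, which carries the same allele by its label, held AP1 at 122 and 125 CPM against 189 and 188 CPM in DEX-sprayed wild type, also lower (log2 fold change -0.62, edgeR adjusted p = 2.42e-06).

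At an adjusted p under 0.05 in edgeR's quasi-likelihood test, 234 genes differed, 1.11% of those tested. In ap1-1, 94 were higher (0.447%) and 140 lower (0.666%), with median log2 fold changes of 1.44 and -1.26 against -0.0018 over all genes tested. Without adjustment, 2966 genes, 14.1% of those tested, had a p under 0.05, a share printed beside some unadjusted counts of gene lists. All gene lists were chosen with earlier results of these data known or after values were seen. That share is therefore not a like baseline for them, and their counts are descriptions. A difference of at least 2-fold was reached by 71 of the higher and 93 of the lower genes. None of the 234 had overlapping libraries, which alone says little because 32.5% of all tested genes did not overlap. The number of calls rests on all 5 libraries. Without ap1-1 replicate 1, 2 or 3, the higher and lower calls numbered 48 and 53, 27 and 31, and 37 and 77, and without wild type replicate 1 or 2 they numbered 22 and 60, and 36 and 68. With 1 wild-type library left, that library is assumed to vary like the ap1-1 ones. Of the 234 genes, 38 kept the call without any one library and under every other setting tried, AP1 among them, and 82 lost it whichever library was left out. Called genes lay on all 5 chromosomes, making up 0.738% to 1.38% of the genes tested on each.

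**Figure D1:**
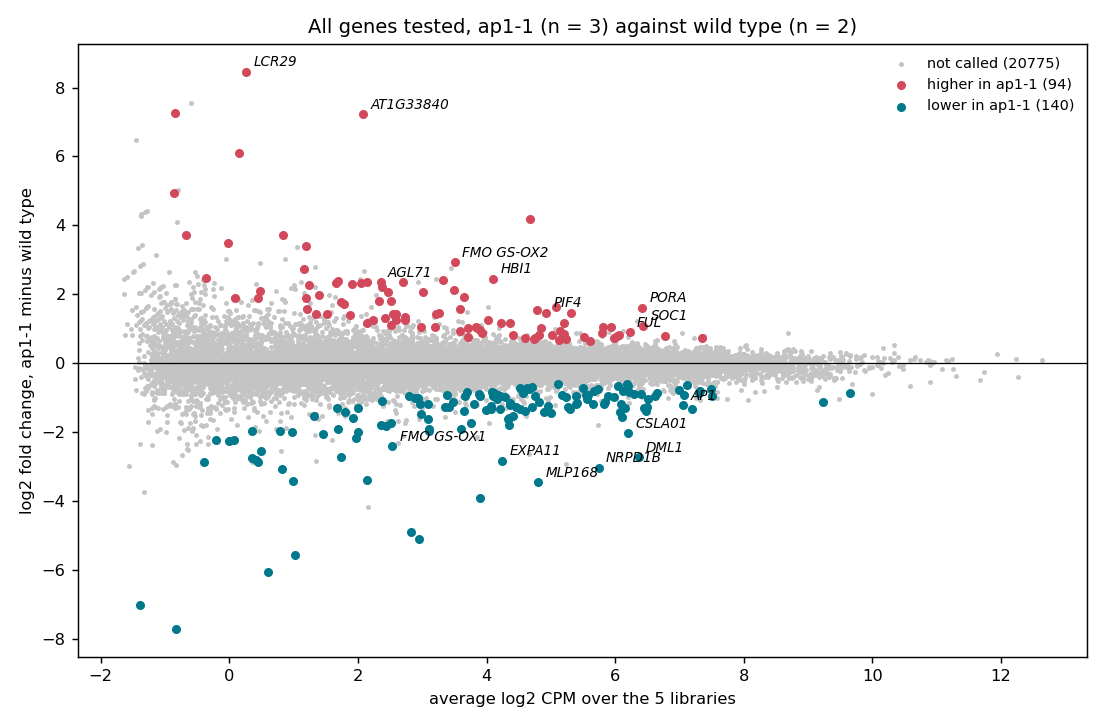
Log2 fold change of ap1-1 over wild type (y axis) against average log2 CPM (x axis) for the 21009 genes tested, each point 1 gene, with colour for an adjusted p under 0.05. The 94 higher and 140 lower genes stand out from a cloud of 20775 genes that were not called.

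Among regulators of floral meristem identity, FUL, the relative of AP1 that also acts in inflorescence meristems and carpels, was at 51.5 and 46.6 CPM in wild type and 84.6, 88.1 and 106 CPM in ap1-1. The groups did not overlap (log2 fold change 0.91 ± 0.14, edgeR adjusted p = 0.0229). The call for FUL was lost without ap1-1 replicate 2, wild type replicate 1 or wild type replicate 2 (adjusted p = 0.0857, 0.120 and 0.154). CAL, the closest relative of AP1, was at 7.05 and 7.68 against 15.9, 10.8 and 14.1 CPM, and did not pass (0.88 ± 0.19, edgeR adjusted p = 0.0815). LFY (log2 fold change 0.34, edgeR adjusted p = 0.516), which activates AP1, UFO (-0.69 ± 0.35, 0.428), an F-box partner of LFY, and STM (0.02 ± 0.11, 0.953), the homeobox gene that keeps meristem cells undifferentiated, did not pass either. Of the 7 tested genes in this list AP1 was lower and FUL higher, and the list's median was 0.34.

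Of 17 tested inflorescence and flowering-time regulators, 6 were higher in ap1-1 and 0 lower by edgeR, with 12 at an unadjusted p under 0.05, against 14.1% of all genes tested, and a median log2 fold change of 0.83. DESeq2 gave 9 higher and limma-voom 6, neither any lower. All 6 genes called by edgeR were also higher in the microRNA line than in DEX-sprayed wild type. That comparison called 23.1% of all its tested genes higher, and 9 of the 17 in this list. In it the allele, the microRNA and the spray cannot be told apart.

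SOC1 (AT2G45660), a MADS-box integrator of flowering signals that AP1 represses, was at 48.5 and 54.99 CPM in wild type and 109, 107 and 118 CPM in ap1-1 (log2 fold change 1.09 ± 0.12, edgeR adjusted p = 0.00697). Its relative AGL42 was at 35.1 and 38.7 against 67.8, 69.2 and 68.7 CPM (0.88 ± 0.11, edgeR adjusted p = 0.0122). AGL71, a further SOC1 relative, was at 1.23 and 1.69 against 7.75, 6.83 and 8.16 CPM (2.36 ± 0.23, edgeR adjusted p = 0.00514). In each of these, every ap1-1 library was above both wild-type libraries and the 3 ap1-1 libraries lay close together. The neighbouring gene AGL72 stood at 0.533 and 1.24 against 5.35, 4.60 and 4.21 CPM (2.40 ± 0.35, edgeR adjusted p = 0.0210), and its log2 fold change was 3.13 without wild type replicate 2. AGL71 and AGL72 adjoin on chromosome 5 and are similar in sequence, so reads may be split between them. FD, the bZIP partner of the florigen FT, had 5.29 and 5.66 CPM in wild type and 20.4, 14.6 and 14.6 CPM in ap1-1 (1.58 ± 0.20, edgeR adjusted p = 0.0131). SNZ, an AP2-type repressor of flowering, had 0.860 and 0.826 against 3.59, 2.75 and 3.19 CPM (1.90 ± 0.27, edgeR adjusted p = 0.0202). Both sets of libraries stood apart in FD and SNZ as well.

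Only AGL71 among these 6 kept its call without any one library. SOC1 lost it without wild type replicate 1 (adjusted p = 0.0789), and FD without wild type replicate 1 or 2 (0.0773 and 0.0524). AGL42 lost it without ap1-1 replicate 2, wild type replicate 1 or 2 (0.0627, 0.125 and 0.0621). AGL72 lost it without ap1-1 replicate 1, 2 or 3 or wild type replicate 1 (0.0669 to 0.0847), and SNZ whichever library was left out (0.0627 to 0.112).

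Other members of the list missed the threshold. AGL24, a MADS-box gene that AP1 represses, was at 6.39 and 5.70 against 10.1, 10.7 and 11.7 CPM (log2 fold change 0.83 ± 0.17, edgeR adjusted p = 0.0602). TFL1, which keeps the inflorescence from turning into a flower, was at 0.860 and 1.115 against 2.40, 2.75 and 4.05 CPM (1.61 ± 0.33, edgeR adjusted p = 0.0647). The repressors FLC (1.22, 0.0694) and SVP (0.26, 0.621) and the florigen FT (-0.78, 0.222) did not pass either. MAF5, an FLC relative outside the list and named after its values were seen, was at 7.33 and 8.18 against 16.7, 13.8 and 14.3 CPM (0.93, edgeR adjusted p = 0.0360), a call lost whichever library was left out (0.0809 to 0.235).

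**Figure D2:**
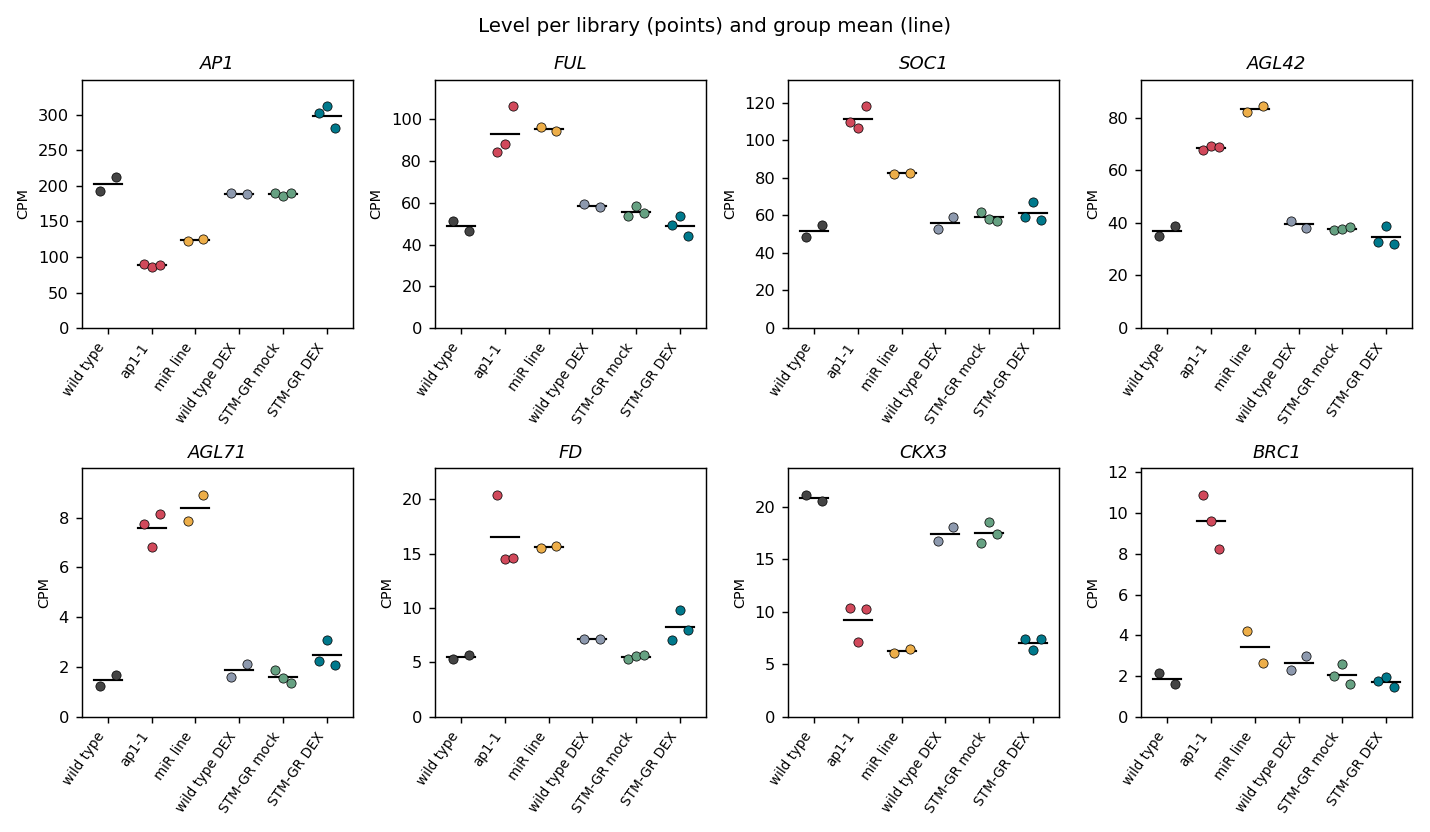
CPM of 8 regulators in each library of the 6 groups, with the group mean as a line and each y axis starting at 0. In ap1-1, AP1 and CKX3 lay below wild type and FUL, SOC1, AGL42, AGL71, FD and BRC1 above it, while BRC1 in the microRNA line was near the wild-type level.

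Floral organ identity genes gave few calls, with 1 of 15 tested members higher and 0 lower by edgeR, and a median of 0.12. An unadjusted p under 0.05 was reached by 6 of the 15, against 14.1% of all genes tested. DESeq2 called 1 higher and 1 lower, limma-voom none. SEP4, a cofactor of the organ identity MADS-box proteins, was at 17.1 and 18.7 CPM in wild type and 29.1, 37.1 and 43.3 CPM in ap1-1 (1.01 ± 0.18, edgeR adjusted p = 0.0405). The call for SEP4 was lost under limma-voom (0.0516) and without ap1-1 replicate 2 or 3 or wild type replicate 1 or 2 (0.0841 to 0.213). The petal and stamen genes AP3 (172 and 208 against 115, 131 and 148 CPM, log2 fold change -0.54 ± 0.15, edgeR adjusted p = 0.142) and PI (219 and 239 against 180, 175 and 186 CPM, -0.36, 0.209) had lower values in every ap1-1 library but did not pass. SEP3, a partner of both, was at 199 and 224 against 122, 159 and 175 CPM (-0.49, edgeR adjusted p = 0.233), and AG, which specifies stamens and carpels, differed by -0.02 ± 0.13 (0.974).

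In the list of sepal and petal growth, 1 of 15 tested genes was lower and 0 higher (6 at an unadjusted p under 0.05, median 0.24, DESeq2 1 higher and 1 lower, limma-voom 1 lower). BPE, a bHLH factor that limits petal cell size, was at 68.9 and 61.3 CPM in wild type and 38.3, 29.6 and 37.1 CPM in ap1-1 (-0.91 ± 0.14, edgeR adjusted p = 0.0227). It was also low in the microRNA line, at 14.6 and 16.8 CPM. The call for BPE in ap1-1 was lost whichever library was left out (0.0508 to 0.149).

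Of 17 organ boundary and axillary meristem genes, 2 were higher and 0 lower, with 8 at an unadjusted p under 0.05, a median of 0.59, and 3 higher by DESeq2. Both called genes encode TCP factors of the CYCLOIDEA type. BRC1, which holds back the outgrowth of axillary buds, was at 2.13 and 1.61 CPM in wild type and 10.9, 9.63 and 8.26 CPM in ap1-1 (2.35 ± 0.23, edgeR adjusted p = 0.00512). TCP1 was at 5.41 and 4.01 against 14.7, 10.96 and 13.1 CPM (1.45 ± 0.21, edgeR adjusted p = 0.0210). Neither gene was high in the microRNA line, although it carries the same allele. There BRC1 was at 4.21 and 2.66 CPM against 2.28 and 2.97 CPM in DEX-sprayed wild type (0.36, edgeR adjusted p = 0.216), and TCP1 at 3.46 and 3.34 CPM was lower than in that wild type (-0.58, edgeR adjusted p = 0.00945). BRC1 kept its call in ap1-1 without any one library, whereas TCP1 lost it whichever was left out (0.0513 to 0.102). The third member of the family, BRC2, did not pass (1.35, edgeR adjusted p = 0.118), nor did the boundary gene CUC2 (0.62, 0.114).

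Trichome genes had the highest list median, 1.05, with 11 of 12 tested members above 0 and 8 at an unadjusted p under 0.05 (14.1% of all genes). Only ZFP8, a zinc-finger factor of trichome initiation, was called, at 1.43 and 1.40 CPM in wild type and 5.17, 3.55 and 5.47 CPM in ap1-1 (1.72 ± 0.27, edgeR adjusted p = 0.0270). It lost the call without ap1-1 replicate 1 or 3 or wild type replicate 1 or 2 (0.0833 to 0.137). TTG2 (1.37, edgeR adjusted p = 0.0556) and GL2 (1.06, 0.0598), which act in trichome differentiation, lay just past the threshold. DESeq2 called 3 of the 12 higher.

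Cytokinin genes moved in both directions, with 1 of 15 higher, 1 lower and a median of 0.07. CKX3, which breaks cytokinin down, was at 21.1 and 20.6 CPM in wild type and 10.4, 7.09 and 10.3 CPM in ap1-1 (-1.18 ± 0.18, edgeR adjusted p = 0.0235). LOG5, an enzyme of the step that releases active cytokinin, was at 9.55 and 11.9 against 29.2, 22.0 and 21.3 CPM (1.16 ± 0.18, edgeR adjusted p = 0.0270). The groups did not overlap in either gene, and the microRNA line stood on the same side as ap1-1, with 6.07 and 6.49 CPM for CKX3 and 17.9 and 17.1 CPM for LOG5. Both calls were lost whichever library was left out (0.0529 to 0.125 for CKX3 and 0.0516 to 0.174 for LOG5). LOG1, which AP1 has been reported to repress, did not pass (0.36, edgeR adjusted p = 0.339).

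Of 8 gibberellin genes 1 was lower and 0 higher (median -0.14, 4 at an unadjusted p under 0.05, DESeq2 1 higher and 2 lower, limma-voom 1 lower). GA2OX2, which inactivates gibberellin, was at 35.6 and 31.0 CPM in wild type and 17.5, 20.7 and 21.5 CPM in ap1-1 (-0.76 ± 0.14, edgeR adjusted p = 0.0477), lost with upper-quartile scaling (0.0513) and whichever library was left out (0.0833 to 0.308). Outside the list, and named after their values were seen, RGL2, a DELLA repressor of gibberellin response, was at 136 and 139 against 78.0, 71.8 and 80.1 CPM (-0.85, edgeR adjusted p = 0.0131). GAMT2, which methylates and so inactivates gibberellin, was at 1.84 and 2.15 against 7.30, 5.82 and 7.96 CPM (1.80, edgeR adjusted p = 0.0131). RGL2 lost the call without ap1-1 replicate 2 or wild type replicate 1 or 2 (0.0795 to 0.0896), and GAMT2 without ap1-1 replicate 3 or wild type replicate 1 (0.0520 and 0.0844).

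No call was made in the remaining developmental lists by edgeR or limma-voom. Over all genes tested, 14.1% had an unadjusted p under 0.05, a share that the anther and pollen lists did not exceed, nor among the hormone and general lists the response regulator, clock, photosynthetic and heat shock genes. At an unadjusted p under 0.05 stood 3 of 9 SPL genes, 3 of 14 carpel and ovule genes, 3 of 13 KNOX and BELL genes, 2 of 9 stem cell genes, 3 of 16 polarity genes, 2 of 8 CIN-type TCP genes, 1 of 20 anther and tapetum genes and 1 of 8 pollen genes. DESeq2 called 1 SPL, 1 polarity and 1 CIN-type TCP gene higher, 1 KNOX or BELL and 1 anther gene lower, and none of the carpel, stem cell or pollen genes. The medians of these lists ran from -0.13 (anther) to 0.23 (carpel). Of the hormone and general lists without an edgeR or limma-voom call, 9 of 21 auxin, 1 of 8 type-A response regulator, 5 of 9 cell cycle, 2 of 16 clock, 6 of 12 flavonoid, 0 of 20 photosynthetic and 0 of 4 heat shock genes had an unadjusted p under 0.05. DESeq2 called 1 auxin gene lower, 1 response regulator, 1 cell cycle gene and 2 flavonoid genes higher, and none of the others. All 9 cell cycle genes had positive log2 fold changes, with a median of 0.26.

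**Figure D3:**
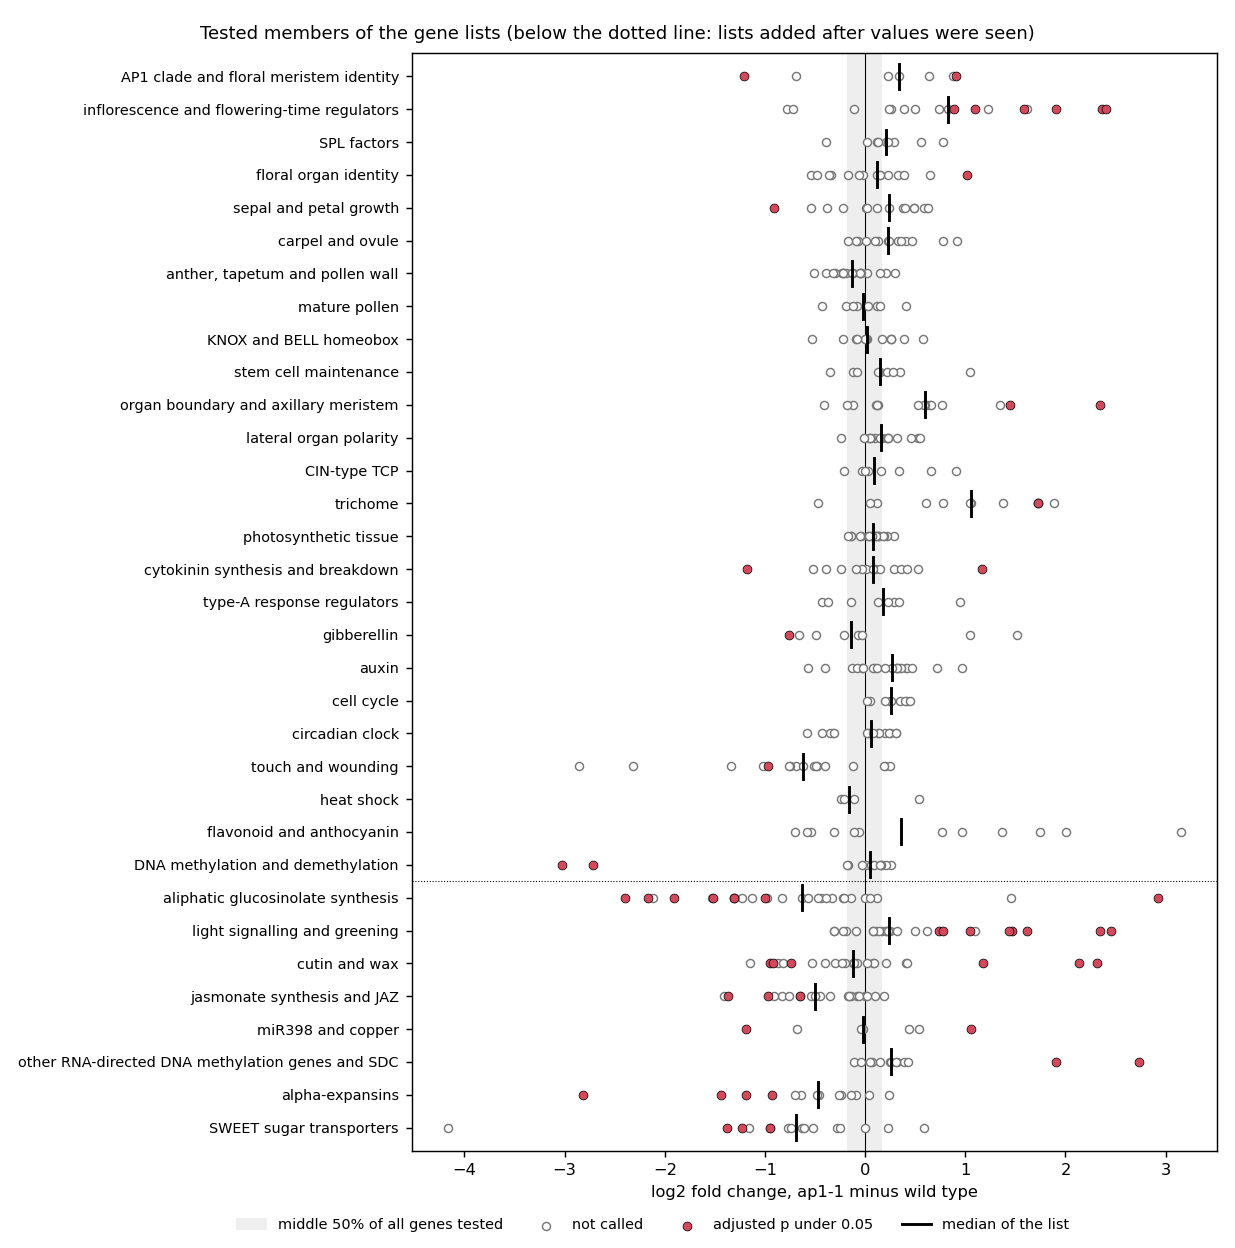
Log2 fold change of ap1-1 over wild type for the tested members of each gene list, 1 point a gene, filled red at an adjusted p under 0.05, with the list median as a bar and the middle 50% of all genes tested (-0.17 to 0.16) as a grey band. The lists below the dotted line were added after values were seen; flowering-time and trichome genes have medians of 0.83 and 1.05, and NRPD1B and DML1 lie far to the left of the other methylation genes.

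The largest falls among regulators of DNA methylation were in NRPD1B and DML1. Plants methylate DNA at repeats and transposons through small RNAs, which act where RNA polymerase V transcribes, and DNA glycosylases remove the mark again. NRPD1B (AT2G40030, chromosome 2, 16714460 to 16723718 in TAIR10.1), the largest subunit of RNA polymerase V, was at 117 and 109 CPM in wild type and 9.32, 18.4 and 14.4 CPM in ap1-1 (-3.03 ± 0.24, edgeR adjusted p = 0.00188). DML1, also known as ROS1 (AT2G36490, chromosome 2, 15307907 to 15314807 in TAIR10.1), a demethylase, was at 164 and 171 against 21.9, 29.4 and 25.9 CPM (-2.72 ± 0.14, edgeR adjusted p = 0.000675). Both were far lower in every ap1-1 library, and both kept the call without any one library.

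The microRNA line did not share either low level. NRPD1B was there at 118 and 143 CPM against 102 and 111 CPM in DEX-sprayed wild type, slightly higher (0.28, edgeR adjusted p = 0.0172). DML1 was at 137 and 155 CPM against 161 and 159 CPM (-0.15, edgeR adjusted p = 0.158). The STM-GR groups averaged 121 (mock) and 123 CPM (DEX) for NRPD1B and 178 and 179 CPM for DML1, so the 3 ap1-1 libraries stood below all 12 others for both genes. Of all genes tested, 1.37% had their 3 ap1-1 libraries below the other 12.

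Of 14 tested methylation and demethylation genes only these 2 were called, both by all 3 tools, and the list median was 0.05. A second list of RNA-directed DNA methylation genes, added after values were seen, had 2 of 13 members higher. DMT2 (MET2), a relative of the maintenance methyltransferase MET1, was at 0.533 and 0.454 CPM in wild type and 3.74, 3.81 and 2.48 CPM in ap1-1 (2.74 ± 0.34, edgeR adjusted p = 0.0122), with 1.06 and 1.02 CPM in the microRNA line. SDC, an F-box gene known to be silenced by methylation of repeats in its promoter, was at 0.328 and 0.413 against 1.53, 1.43 and 1.27 CPM (1.91 ± 0.35, edgeR adjusted p = 0.0480), with 0.426 and 0.484 CPM in the microRNA line. DMT2 lost its call without ap1-1 replicate 2 or wild type replicate 1 or 2 (0.0585 to 0.0599). SDC lost it whichever library was left out (0.0835 to 0.292), under limma-voom (0.0607) and without a filter on low counts (0.0502), and its level is near the lower end of what was tested.

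**Figure D4:**
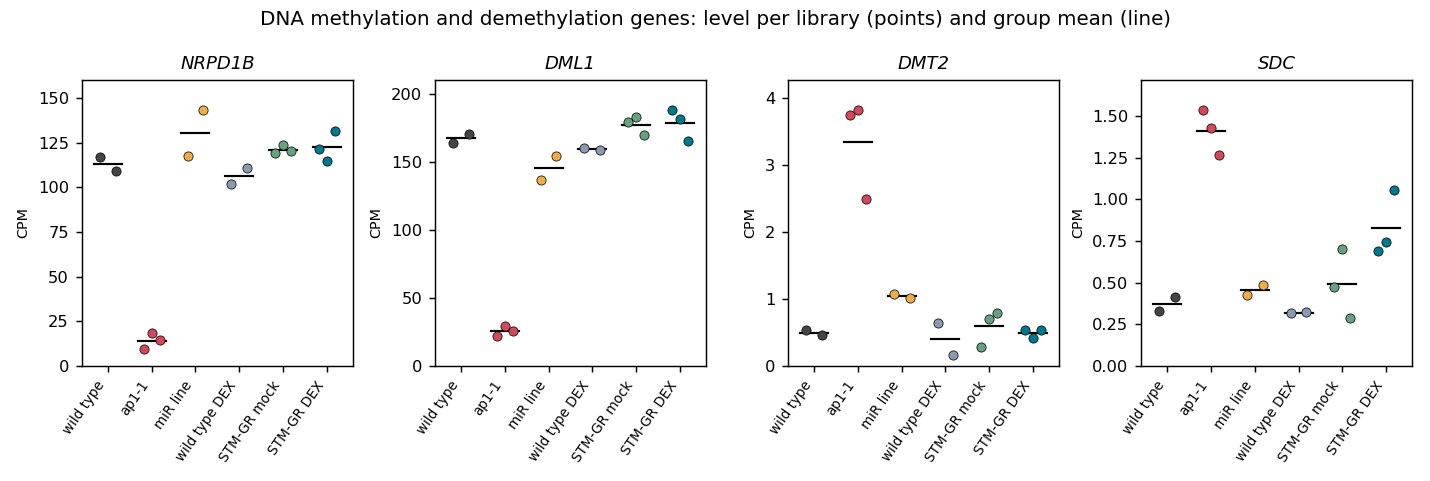
CPM of NRPD1B, DML1, DMT2 and SDC in each library of the 6 groups, with the group mean as a line and each y axis starting at 0. NRPD1B at 9.32 to 18.4 CPM and DML1 at 21.9 to 29.4 CPM in ap1-1 lie below all other libraries, and DMT2 and SDC in ap1-1 lie above them.

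Genes of light signalling and greening, a list added after values were seen, held 8 higher and 0 lower of 26 tested, by edgeR, limma-voom and DESeq2 alike, with a median of 0.24. Over all genes tested, edgeR called 0.447% higher. For this and the other lists added in that way, members were picked with values known. Their counts are therefore descriptions, and shares over all genes are not a like baseline. HBI1 (AT2G18300), a bHLH factor that promotes growth, was at 5.20 and 4.13 CPM in wild type and 23.4, 28.2 and 25.8 CPM in ap1-1 (2.45 ± 0.17, edgeR adjusted p = 0.00130). PIF4, a bHLH factor that promotes elongation and is destabilised by light, was at 15.3 and 14.3 against 43.5, 40.3 and 40.2 CPM (1.47 ± 0.12, edgeR adjusted p = 0.00211). PORA, an enzyme of chlorophyll synthesis, was at 39.4 and 36.9 against 103, 130 and 121 CPM (1.62 ± 0.14, edgeR adjusted p = 0.00294). In these 3 genes the groups were well apart and the calls held without any one library. HBI1 was also raised in the microRNA line (14.2 and 14.6 CPM against 4.70 and 4.81 CPM in DEX-sprayed wild type), but PIF4 there was at 13.5 and 13.7 CPM and PORA at 26.4 and 26.1 CPM, near DEX-sprayed wild type (0.01 and -0.00, edgeR adjusted p = 0.951 and 0.978).

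PIF7, a relative of PIF4, had 2.46 and 3.47 against 8.31, 7.57 and 8.46 CPM (1.44 ± 0.21, edgeR adjusted p = 0.0216). PKS1, a substrate of phytochrome kinase activity, had 0.738 and 1.07 against 4.04, 4.23 and 5.73 CPM (2.34 ± 0.30, edgeR adjusted p = 0.0131). GLK1, a regulator of chloroplast development, had 30.7 and 43.9 against 80.8, 68.6 and 84.2 CPM (1.05 ± 0.17, edgeR adjusted p = 0.0307). The blue-light receptor PHOT1 (0.74 ± 0.12, edgeR adjusted p = 0.0353) and the B-box factor BBX21 (0.77 ± 0.14, 0.0413) completed the 8. PIF7 lost the call without ap1-1 replicate 1, 2 or 3 or wild type replicate 1 (0.0668 to 0.137), PKS1 without ap1-1 replicate 2 or wild type replicate 1 (0.0583 and 0.0784), and GLK1 without ap1-1 replicate 1, 2 or 3 or wild type replicate 1 (0.0844 to 0.173). PHOT1 and BBX21 lost it whichever library was left out (0.0511 to 0.248 and 0.0841 to 0.230). None of the 20 photosynthetic genes was called, none had an unadjusted p under 0.05, and DESeq2 and limma-voom called none either.

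Genes of aliphatic glucosinolate synthesis, which make sulfur-rich defence compounds from methionine, formed another list added after values were seen. Of 27 tested members, 7 were lower and 1 higher, with 17 at an unadjusted p under 0.05 and a median of -0.63. The 14.1% of all genes with such a p is not a like baseline for members picked in that way. CYP83A1, of the core pathway, was at 203 and 256 CPM in wild type and 83.2, 74.9 and 122 CPM in ap1-1 (-1.31 ± 0.21, edgeR adjusted p = 0.0292). In methionine chain elongation, IPMI1 was at 17.3 and 25.4 against 5.46, 4.13 and 7.65 CPM (-1.91 ± 0.26, edgeR adjusted p = 0.0182) and IMD1 at 27.2 and 42.4 against 9.58, 11.01 and 16.2 CPM (-1.52 ± 0.25, 0.0322). Also lower were IPMI2 (-1.31 ± 0.23, 0.0426) and MAM1 (-0.9999 ± 0.18, 0.0479) of the same step and the glutathione transferase GSTF11 (-2.17 ± 0.34, 0.0251).

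The S-oxygenases that were called, which modify the side chain, went opposite ways. FMO GS-OX1 was at 9.38 and 12.6 CPM in wild type and 1.98, 1.43 and 2.89 CPM in ap1-1 (-2.40 ± 0.28, edgeR adjusted p = 0.00942). FMO GS-OX2 was at 2.05 and 2.52 against 20.2, 14.4 and 17.9 CPM (2.93 ± 0.22, edgeR adjusted p = 0.00156). They are close copies, so reads may be split between them, and both kept the call without any one library. The 6 other calls did not hold. CYP83A1 lost it without ap1-1 replicate 1 or 2 or wild type replicate 1 or 2 (0.0599 to 0.115), IPMI1 without ap1-1 replicate 1 or 2 or wild type replicate 2 (0.0621 to 0.0683) and IMD1 without the same libraries (0.0960 to 0.134). IPMI2 and GSTF11 lost it without ap1-1 replicate 1, 2 or 3 or wild type replicate 2 (0.0873 to 0.190 and 0.0789 to 0.116) and MAM1 whichever was left out (0.0642 to 0.207). Without wild type replicate 2 the log2 fold change of GSTF11 was -1.56. The factors that switch the pathway on, MYB28 (-0.47, edgeR adjusted p = 0.364) and MYB29 (-1.53, 0.112), did not pass.

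Of 17 tested touch and wounding genes 1 was lower by each tool, JAZ10, which the jasmonate list below counts again. In this list 6 genes had an unadjusted p under 0.05, and the median of the 17 was -0.62. The summed level of the 17 genes overlapped between the genotypes, at 5689 to 7147 CPM in wild type and 6036, 3896 and 6148 CPM in ap1-1 replicates 1, 2 and 3. WRKY40 and CBF1, which handling raises quickly, differed between the wild-type libraries, with 2.21 and 21.0 CPM for WRKY40 and 0.410 and 4.42 CPM for CBF1. The part of handling in the defence genes was not tested. The jasmonate list, added after values were seen, had 3 of 23 members lower and 0 higher (10 at an unadjusted p under 0.05, median -0.50, DESeq2 6 lower and limma-voom 3). LOX4, an early enzyme of jasmonate synthesis, was at 34.3 and 42.2 against 17.9, 15.1 and 11.7 CPM (-1.37 ± 0.18, edgeR adjusted p = 0.0168). OPR3, a later enzyme (-0.65 ± 0.11, 0.0322), and the repressor JAZ10 (57.5 and 49.7 against 27.2, 22.4 and 33.0 CPM, -0.97 ± 0.17, 0.0360) were the others. LOX4 lost the call without ap1-1 replicate 2 or wild type replicate 2 (0.0840 and 0.0665), JAZ10 without ap1-1 replicate 1 or 2 or wild type replicate 1 or 2 (0.0761 to 0.194) and OPR3 whichever was left out (0.0706 to 0.235).

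Alpha-expansins, which loosen cell walls, and SWEET sugar transporters made up 2 further lists added after values were seen. Of 14 tested expansins, 4 were lower and 0 higher (5 at an unadjusted p under 0.05, median -0.47, DESeq2 and limma-voom also 4 lower). EXPA11 was at 38.5 and 39.2 CPM in wild type and 5.32, 2.65 and 8.66 CPM in ap1-1 (-2.82 ± 0.35, edgeR adjusted p = 0.0122), and at 1.54 and 0.872 CPM in the microRNA line. EXPA8 was at 53.8 and 48.8 against 18.8, 16.7 and 21.5 CPM (-1.44 ± 0.13, edgeR adjusted p = 0.00432). EXPA1 (-1.19, 0.0292) and EXPA5 (-0.93, 0.0212) were also lower. EXPA8 alone kept the call without any one library. EXPA11 lost it without ap1-1 replicate 1 (0.0553), EXPA1 without ap1-1 replicate 1, 2 or 3 or wild type replicate 2 (0.0764 to 0.120) and EXPA5 without ap1-1 replicate 1 or 2 or wild type replicate 1 or 2 (0.0681 to 0.102).

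Of 16 tested SWEET genes, which export sugars from cells, 3 were lower and 0 higher (DESeq2 6 lower, limma-voom 3), with a median of -0.69. An unadjusted p under 0.05 was reached by 11, for which the 14.1% of all genes is again not a like baseline. SWEET11 was at 48.1 and 46.6 against 17.3, 20.1 and 23.8 CPM (-1.23, edgeR adjusted p = 0.0109). The neighbouring genes SWEET10 (150 and 127 against 72.5, 64.8 and 80.5 CPM, -0.95, 0.0201) and SWEET13 (17.5 and 21.7 against 8.38, 5.98 and 8.46 CPM, -1.37, 0.0183) differed in the same direction. SWEET11 lost the call without ap1-1 replicate 2 or wild type replicate 1 (0.0639 and 0.0550), SWEET10 without ap1-1 replicate 1 or 2 or wild type replicate 1 (0.0637 to 0.137) and SWEET13 without ap1-1 replicate 2 or 3 or wild type replicate 2 (0.0582 to 0.0837). Such pairs of called genes, adjacent in the order of tested genes, numbered 7, and in each both genes moved the same way. How often neighbours over all genes tested move the same way was not counted.

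Genes of the plant surface, in a list added after values were seen, went both ways, with 3 of 23 higher and 3 lower. CER26, which acts in the elongation of wax chains, was at 3.61 and 3.80 CPM in wild type and 17.0, 15.9 and 16.2 CPM in ap1-1 (2.13 ± 0.16, edgeR adjusted p = 0.00156). DCF, which adds ferulate to cutin, was at 1.35 and 1.07 against 5.32, 6.03 and 7.04 CPM (2.32 ± 0.25, edgeR adjusted p = 0.00697). GPAT6, a cutin enzyme of flowers, was at 241 and 273 against 142, 126 and 134 CPM (-0.95 ± 0.12, edgeR adjusted p = 0.0131). The microRNA line stood on the same side, with CER26 at 21.1 and 21.1 CPM and GPAT6 at 113 and 106 CPM. CYP86A2, a fatty acid hydroxylase (1.17, edgeR adjusted p = 0.0129), was higher, and SHN1, an activator of cutin and wax genes (-0.74, 0.0377), and FOP1, a wax ester synthase of petals (-0.92, 0.0329), were lower. CER26 and DCF kept the call without any one library. GPAT6 and CYP86A2 lost it without ap1-1 replicate 2 or wild type replicate 1 or 2 (0.0586 to 0.0967 and 0.0557 to 0.0764), SHN1 without ap1-1 replicate 2 or 3 or wild type replicate 1 or 2 (0.0935 to 0.199) and FOP1 without ap1-1 replicate 1, 2 or 3 or wild type replicate 2 (0.0873 to 0.213).

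One called pair was a microRNA gene and a gene it is known to silence, picked from a list of miR398 and copper genes added after values were seen. Of 7 tested members of that list, 1 was higher and 1 lower, which are this pair, and the median was -0.03. Whether the pair is linked in these plants was not tested. The miR398 family cuts messages of copper/zinc superoxide dismutases, and its sequences are shown beside the closest stretch found in CSD2. The capitals mark the seed, bases 2 to 8, which all members share, and U stands for uracil. The sequences are from RefSeq, TAIR10.1.
miR398a, chr2:1041012-1041032, + strand: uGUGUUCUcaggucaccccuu
miR398b, chr5:4691107-4691127, + strand: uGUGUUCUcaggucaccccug
miR398c, chr5:4694778-4694798, + strand: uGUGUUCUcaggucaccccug
The best-matching stretch of the CSD2 coding sequence, searched without gaps, is read 5′ to 3′ and pairs with miR398c in the opposite direction. The 13 bases in Watson-Crick pairs are in capitals, beside 3 G:U pairs and 5 mismatches. Some of the mismatches face seed bases, and such a search could not find a site with an unpaired extra base.
CSD2, chr2:12015572-12015592, + strand: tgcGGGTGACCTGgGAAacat
The precursor MIR398c was counted at 11.1 and 14.1 CPM in wild type and 5.43, 6.72 and 4.66 CPM in ap1-1 (-1.19 ± 0.20, edgeR adjusted p = 0.0364). CSD2, the superoxide dismutase of chloroplasts, was at 39.4 and 28.8 against 65.95, 66.6 and 82.4 CPM (1.06 ± 0.17, edgeR adjusted p = 0.0297). The cytosolic enzyme CSD1, a target too, did not pass (0.54, edgeR adjusted p = 0.401). MIR398a and MIR398b were listed at 0, and precursor counts are not a measure of the mature microRNA. CSD2 lost the call without ap1-1 replicate 1, 2 or 3 or wild type replicate 2 (0.0640 to 0.147) and MIR398c whichever was left out (0.0780 to 0.183). In the microRNA line neither gene differed past the threshold from DEX-sprayed wild type (0.15 and -0.30, edgeR adjusted p = 0.133 and 0.106).

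The largest changes among well-expressed genes with a symbol included HB53, a homeodomain-leucine zipper factor, at 0.0410 and 0.6197 CPM in wild type and 3.71, 3.39 and 3.55 CPM in ap1-1 (3.40 ± 0.58, edgeR adjusted p = 0.0364). Its log2 fold change was 2.50 without wild type replicate 1 and 6.25 without replicate 2, and the call was lost without any of the 3 ap1-1 libraries (0.0976 to 0.116). The dioxygenase gene 2A6 (2.42 ± 0.20, edgeR adjusted p = 0.00247), the ubiquitin-fold gene MUB5 (2.30 ± 0.35, 0.0235) and the latex-protein-like gene MLP43 (2.08 ± 0.30, 0.0212) were also higher. At the other end, MLP168 was at 84.8 and 37.3 against 5.05, 2.33 and 9.53 CPM (-3.45 ± 0.49, edgeR adjusted p = 0.0201), or -2.74 without wild type replicate 1. AAE11, an acyl-activating enzyme, was at 13.4 and 5.25 against 1.16, 0.159 and 1.32 CPM (-3.37 ± 0.58, 0.0364), or -2.55 without wild type replicate 1. In both genes wild type replicate 1 was well above replicate 2, and both lay above every ap1-1 library. CYP71A24 (-2.70 ± 0.29, edgeR adjusted p = 0.00669), the mannan synthase gene CSLA01 (-2.03 ± 0.24, 0.0107), the peptide gene RGF6 (-2.04, 0.0229) and the receptor-like kinase CRK40 (-1.97, 0.0251) were lower as well. Among these, 2A6, CYP71A24 and CSLA01 kept the call without any one library. MUB5 lost it under limma-voom (0.0516) and without ap1-1 replicate 2 or 3 or wild type replicate 1 or 2 (0.0531 to 0.130), MLP43 and CRK40 without ap1-1 replicate 1 or 3 or wild type replicate 1 or 2 (0.0669 to 0.0898 and 0.0531 to 0.0971), MLP168 without ap1-1 replicate 1 or 2 or wild type replicate 1 (0.0621 to 0.0887), AAE11 under limma-voom (0.0772), with library weights (0.0594) and without ap1-1 replicate 1, 2 or 3 or wild type replicate 1 (0.0847 to 0.159) and RGF6 without the same 4 (0.0531 to 0.141).

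Some genes without a symbol changed more, and are named after their values were seen. AT1G70720, of the pectin methylesterase inhibitor family, had 473 and 402 counts in wild type and 9, 8 and 17 in ap1-1 (-5.09, edgeR adjusted p = 0.000675). AT4G22490, of a lipid-transfer family, had 51 and 59 against 1067, 622 and 1031 counts (4.19, edgeR adjusted p = 0.000675). AT4G27570, a UDP-glycosyltransferase, had 593 and 1041 against 58, 40 and 48 counts (-3.92, edgeR adjusted p = 0.00103). All libraries of 1 genotype lay beyond those of the other in each, and these 3 kept their calls without any one library. A few called genes had 0 counts in every library of 1 group. Against a floor of 3 counts over that group, LCR29, of the defensin-like family, with 126 counts in ap1-1, was at least 31.8-fold higher, and GRP9, a glycine-rich protein gene, with 53 counts, at least 13.4-fold higher. AT1G74820, with 55 counts in wild type, was at least 24.2-fold lower and RTFL5, a small-peptide gene, with 34 counts, at least 14.97-fold lower. LCR29 kept its call without any one library, AT1G74820 lost it without ap1-1 replicate 1, 2 or 3 or wild type replicate 1 (adjusted p = 0.0531 to 0.0849), and GRP9 and RTFL5 whichever was left out (0.0508 to 0.154 and 0.0751 to 0.128). These bounds cover counting error only.

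To see which differences recurred in the second genotype that carries ap1-1, the called genes were set beside the microRNA line and DEX-sprayed wild type. That comparison called 23.1% of its 20792 tested genes higher and 26.6% lower, so a call there is common. Of the 94 genes higher in ap1-1, 87 could be tested there and 69 were called higher too, which is 73.4% of the 94 and 1.43% of the genes called higher there, and 4 were called lower. Of the 140 lower genes, all were tested and 126 were called lower too, which is 90% of the 140 and 2.28% of the genes called lower there, and 6 were called higher. In 59 of the higher genes all 5 libraries with ap1-1 lay above all 10 without it, against 7.18% of all genes tested. In 88 of the lower genes they lay below, against 5.95% of all genes tested. These counts take any separation, however small. DML1 is among the 88, with the microRNA line at 137 and 155 CPM against a lowest value of 159 CPM in the 10, although it was not called in that line. The calls were made on the ap1-1 and unsprayed wild-type libraries counted here, so part of both excesses was fixed by that choice of genes.

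**Figure D5:**
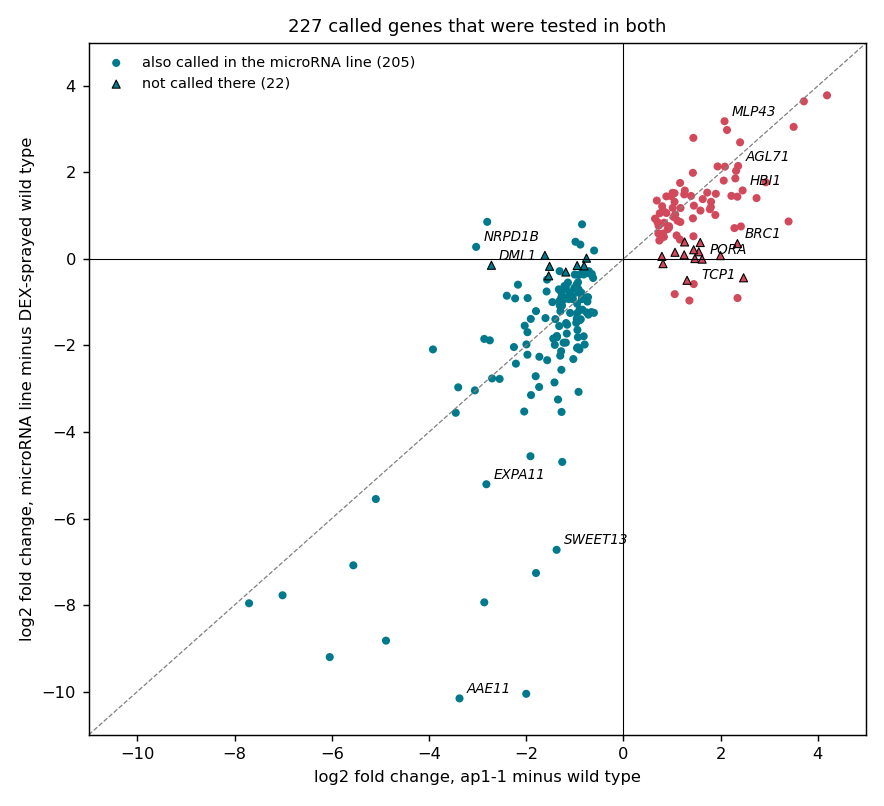
Log2 fold change in the microRNA line over DEX-sprayed wild type (y axis) against that in ap1-1 over unsprayed wild type (x axis) for the 227 called genes tested in both, circles for the 205 also called there and triangles for the 22 not called there. Most points lie in the same-direction quadrants, while NRPD1B, DML1, PORA, BRC1 and TCP1 lie near or across the horizontal zero line.

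The other side of this count is a set in which the 3 ap1-1 libraries alone stood apart. They lay above all 12 other libraries in 45 of the 94 higher genes and below them in 34 of the 140 lower genes, against 1.89% and 1.37% of all genes tested. Here too the genes were called on some of the same libraries, so the shares over all genes are not a like baseline. In 15 of those 45 genes and 8 of those 34 the microRNA line fell within the range of the 10 libraries without ap1-1. The higher ones included PIF4, PIF7, PORA, CSD2, SDC and LCR29, and the lower ones GSTF11, IMD1 and IPMI2. AT1G33840, of the LURP-one-like family, was among the higher ones, with 2 and 0 counts in wild type, 189, 115 and 158 counts in ap1-1 and 1 count in each microRNA library. These genes were picked out after their values were seen, and whether the stocks, the microRNA or growth set them apart was not tested.

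The 250 bases before each gene's start were searched for the CArG box, the motif that MADS-box proteins bind, on both strands. It was found in 2.73% of 20899 such stretches over all genes tested, in 5 of 94 for genes higher in ap1-1 (5.32%) and in 3 of 140 for lower genes (2.14%). A match is a description of these letters and not a bound site, and no match in this window says nothing of sites elsewhere.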

How the data were processed

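RNA was sequenced in 15 libraries, and the 5 of ap1-1 and unsprayed wild type were compared. Per the submitters' processing notes, the authors used TopHat2 2.0.6, HTSeq 0.62 and TAIR10 to make the gene counts they deposited, and the strand setting is not given in the sources used here. Entries that name no gene (5 of them, 5.50% to 6.63% of counts in the 5 libraries) were left out. A table of normalized signal was not used. In edgeR 4.0.16 (R 4.3.3), genes were filtered with filterByExpr (minimum count 10), scaled by TMM and tested with the quasi-likelihood F test, with Benjamini-Hochberg adjustment over all genes tested and calls at an adjusted p under 0.05. The step was tested on simulated data. Only the groups compared were fitted, because their replicates vary more than those of the other groups. Printed CPM are counts scaled with TMM factors over all 15 libraries, and each SE was derived as the absolute log2 fold change divided by the root of the F statistic. Floors cover counting error only, whereas each SE rests on the quasi-likelihood test, which takes in the spread between libraries.

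The members and the 25 gene lists (341 genes, 324 tested) were chosen with earlier results of these data known, and 8 further lists were added after values were seen. The rule for names took AP1, CAL, FUL, LFY, UFO and STM, up to 12 genes in each direction with the largest called change (a symbol, average log2 CPM not under 1, no overlap of libraries) and in each list the 5 or fewer members whose adjusted p was lowest, and the text gives those called and a few that were not. Alternatives were other scalings, no filter, DESeq2 1.42.0, limma-voom (limma 3.58.1) with and without library weights, a fit of all 15 libraries, the replicate number as a block, and each library left out. RefSeq's TAIR10.1 table named 28009 of the genes counted. Figures were drawn with matplotlib 3.10.9 in Python 3.11.15.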

Additional observations from a re-analysis of the deposited data

How the results depend on the processing

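No gene named here changed direction under any alternative in which it was called with either setting. Against 94 higher and 140 lower genes, median-of-ratios scaling gave 99 and 146, upper-quartile scaling 107 and 134, limma-voom 88 and 142 and no filter on low counts 98 and 150. More were called by limma-voom with library weights (240 and 342), which weighted ap1-1 replicates 1 and 3 at 0.519 and 0.612 and the other libraries at 1.46 to 1.47, by DESeq2 (308 and 430) and by the fit of all 15 libraries (1178 and 1128), which gives each gene 1 spread for all groups. Leaving out 1 library gave 22 to 48 higher and 31 to 77 lower genes, fewer samples in each case. With the replicate number as a block, 68 and 175 genes were called, 55 and 99 of them shared with the calls without it. Deviations of same-numbered libraries correlated at 0.00602 and 0.0353, which gave no sign of pairing. With 2 wild-type libraries the deviations mirror each other, so these values cannot decide whether the numbers mark a shared plant or day. Among the genes named, the block ended the calls of ZFP8 and HB53 (both 0.0533), GA2OX2 (0.0777), SDC (0.0844), GRP9 (0.0533), RTFL5 (0.0627), PIF7 (0.0519), GLK1 (0.0596), OPR3 (0.0777), FOP1 (0.0533), MAF5 (0.0764), MIR398c (0.0595), SHN1 (0.0615), BBX21 (0.0920), IPMI2 and MAM1 (both 0.0576). IPMI2 also missed the threshold under limma-voom (0.0575), GSTF11 too (0.0516), and MAM1 with upper-quartile scaling (0.0521). For the microRNA line and DEX-sprayed wild type, 3379 to 5219 higher and 4260 to 5829 lower genes were called over all alternatives, against 4810 and 5525. Scaling moved the median of all genes by -0.01 to 0.02 in log2. Leaving out 1 library, of ap1-1 or of wild type, ended many single-gene calls, and genes at about 1 CPM, such as SDC, rest on few counts.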
